A study of Bos taurus with 8 samples.

Results

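The genes described here are 10 genes of melanin pigmentation that set coat colour in mammals: KITLG, ASIP, KIT, MC1R, MITF, TYR, TYRP1, DCT, PMEL and SLC45A2. They were followed along their length in the methylome of cattle skin fibroblasts. Members were found by symbol: every 3Kb window to which the deposited files give 1 of these gene names was taken, which gave 160 of the 902984 windows of the genome (UMD v3.1). TYR held 38 of these windows, KIT 42, KITLG 21, DCT 14, SLC45A2 13, MITF 12, ASIP 10, TYRP1 6, PMEL 3 and MC1R 1. The DNA came from fibroblasts of shoulder skin, grown from biopsies of 4 Holstein heifers and 4 Angus heifers of the same age and collected at passage 5 with no treatment in either breed. Each animal gave 1 culture and 1 library, and the libraries are called here Holstein 1 to 4 and Angus 1 to 4. Holstein is a dairy breed and Angus a beef breed, and per the study's text Holstein calves are taken early from the dam while Angus calves nurse for months, so that breed and rearing cannot be told apart. In MIRA-Seq, sonicated DNA is pulled down with the MBD2b/MBD3L1 protein complex, which has affinity for methylated CpG, so that the number of reads in a window rises with the methylated CpG it holds.

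Melanin is made by melanocytes, the pigment cells of skin and hair follicle. KITLG, the ligand of the receptor KIT, supports the survival and migration of melanocytes. The hormone receptor MC1R switches them to black eumelanin, and ASIP, the agouti protein secreted by dermal cells of the hair follicle, blocks MC1R and turns the cell to red or yellow pheomelanin. The transcription factor MITF drives the pigment genes: the enzymes TYR, TYRP1 and DCT, the fibril protein PMEL on which melanin is laid down, and the transporter SLC45A2 of the melanosome. MC1R variants separate black from red cattle, and variation near KIT and MITF is associated with white spotting. Dermal fibroblasts do not make melanin.

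Read counts per window are given as CPM, counts per 1e+06 reads of the library over all windows. Every one of the 160 windows was 3000 bases long, so CPM per window needs no correction for length. Levels of different genes can still differ with their CpG density, which was not measured here. The libraries held 18691111 to 35525554 reads, so that 3 reads, the floor used here, were 0.0844 to 0.161 CPM. This floor and the intervals on read shares cover counting error only, since PCR copies are not independent molecules. The median window of the genome held 3 to 12 reads. Reads were most concentrated in Angus 3 and Holstein 1, where 72.4% and 69.0% of reads lay in the top 1% of windows, against 46.8 to 57.4% in the other 6 libraries. The TMM factors of these 2 libraries, by which edgeR scaled the library sizes, were 0.652 and 0.713, against 0.935 to 1.34 in the others. Fold changes below are TMM-scaled and CPM values are not. No input library was used here, so methylation, CpG density, DNA copy number and the yield of the pull-down cannot be told apart. Cell types were not checked by expression, which MIRA-Seq does not measure. In the first windows of marker genes the median was 0.158 CPM for 10 fibroblast genes, 0.746 CPM for 6 melanocyte genes, 1.66 CPM for 4 keratinocyte genes and 0.550 CPM for 3 endothelial genes. The fibroblast genes ranged from 0.0248 to 3.88 CPM, which covers the ranges of the other lists. Those were 0.392 to 1.08 CPM (melanocyte), 0.680 to 1.99 CPM (keratinocyte) and 0.539 to 2.89 CPM (endothelial).

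The first question was how many MIRA-Seq reads the starts of these genes held in fibroblasts. The first window of a gene is the named window nearest its start by strand, and it stands here for the promoter. The files give no start sites, so where this window lies relative to the annotated start was not checked. The 10 genes spanned nearly the whole range of the genome in it. MC1R, which has 1 window with its coding exon 1 (chr18:14756798-14759797), had 3.49, 3.42, 4.12 and 5.01 CPM in the Holstein libraries, in the order 1 to 4, and 3.07, 4.42, 3.12 and 3.85 CPM in the Angus libraries, a mean of 3.81 ± 0.674 CPM (SD, n = 8). This was the highest window of all 160 and stood at percentile 97.3 of the first windows of 26227 genes, whose median was 0.395 CPM. The breeds overlapped throughout, and every library of MC1R lay above every library of the next gene.

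**Figure D1:**
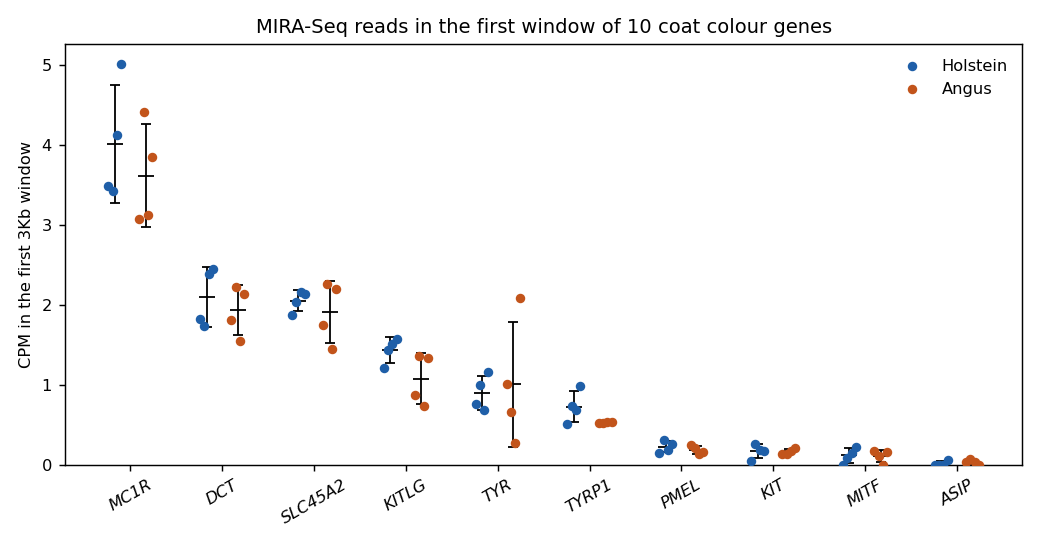
Reads in the first 3Kb window of each gene in CPM, 1 point per library, with the mean and 1 SD of the 4 Holstein (blue) and 4 Angus (orange) libraries. MC1R lies highest at a mean of 3.81 CPM and ASIP lowest at 0.0243 CPM, and the breeds overlap in all 10 genes.

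Among the enzymes, DCT (2.01 ± 0.330 CPM, percentile 91.5) stood above TYR (0.952 ± 0.534 CPM, percentile 78.3) and TYRP1 (0.628 ± 0.167 CPM, percentile 67.0). SLC45A2 had 1.98 ± 0.277 CPM and the ligand KITLG 1.25 ± 0.300 CPM. At the low end were PMEL with 0.206 ± 0.0580 CPM, KIT with 0.166 ± 0.0614 CPM, MITF with 0.113 ± 0.0814 CPM and ASIP with 0.0243 ± 0.0284 CPM (SD, n = 8 throughout). In the order from MC1R to ASIP, 2 steps were free of overlap between libraries, from MC1R to DCT and from TYRP1 to PMEL. DCT and SLC45A2 did not differ beyond their spread, with DCT the higher in 4 of 8 libraries. KITLG was below SLC45A2 in all 8 libraries, although their ranges overlapped. TYR ranged widely, from 0.269 CPM in Angus 3 to 2.09 CPM in Angus 4. The ASIP window held 2 reads in Holstein 4 and Angus 2, 1 read in Angus 1 and Angus 3 and none in the other 4 libraries, all under the floor of 3 reads, which places it at percentile 3.82 without a measurable level.

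The first window was then set against the mean of the other windows of the same gene in the same library, as a log2 ratio with 0.1 CPM added to both, which compares windows of 1 library with each other. Of the 9 genes with at least 3 windows, 4 were lower and 5 higher in the first window, each in 8 of 8 libraries, with an exact two-sided sign-flip test adjusted over 16780 genes (adjusted p = 0.013 for each gene, from the smallest p that 8 libraries allow, 0.00781). Over all genes tested, 56.9% were lower and 21.9% higher by the same rule, and the median log2 ratio was -0.48. The ligand KITLG had 1.25 CPM in its first window against 0.341 CPM in the rest, a log2 ratio of 1.63 ± 0.404 (SD, n = 8 libraries), while its receptor KIT had 0.166 against 0.311 CPM and a log2 ratio of -0.63 ± 0.374. ASIP, the antagonist of MC1R, was lowest with a log2 ratio of -2.18 ± 0.398, which the added 0.1 CPM limits because its first window was nearly empty. The transcription factor MITF followed with -1.71 ± 0.447, which the added 0.1 CPM also limits. Its first window held 0, 2, 4 and 8 reads in the Holstein libraries, in the order 1 to 4. The Angus libraries held 5, 3, 0 and 3 reads there, so that several lay at or under the floor of 3 reads.

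All 3 enzymes and the transporter went the other way. DCT had 2.01 CPM in the first window and 0.540 CPM in the rest (log2 ratio 1.74 ± 0.263), TYRP1 0.628 and 0.137 CPM (1.63 ± 0.357), TYR 0.952 and 0.214 CPM (1.61 ± 0.606) and SLC45A2 1.98 and 0.619 CPM (1.54 ± 0.211). PMEL, the fibril protein, differed from these with 0.206 CPM against 0.655 CPM and a log2 ratio of -1.29 ± 0.276. As plain ratios of the mean CPM, with nothing added, the first window of these 5 higher genes had from 3.20 times (SLC45A2) to 4.58 times (TYRP1) the level of the rest. The plain ratio was 0.534 in KIT, 0.314 in PMEL and 0.202 in MITF, whose first windows were low. The log2 ratios depend on the amount added: with 0.5 CPM they were -0.87 in ASIP, -0.79 in MITF, -0.70 in PMEL, -0.28 in KIT, 0.82 in TYRP1, 0.95 in TYR, 1.05 in KITLG, 1.15 in SLC45A2 and 1.27 in DCT, each with the same direction and call. Breeds did not separate in this measure: the Holstein minus Angus difference of the log2 ratio lay between -0.24 and 0.32, and none passed an exact permutation test of 4 against 4 libraries adjusted over all genes (adjusted p = 1 for each).

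**Figure D2:**
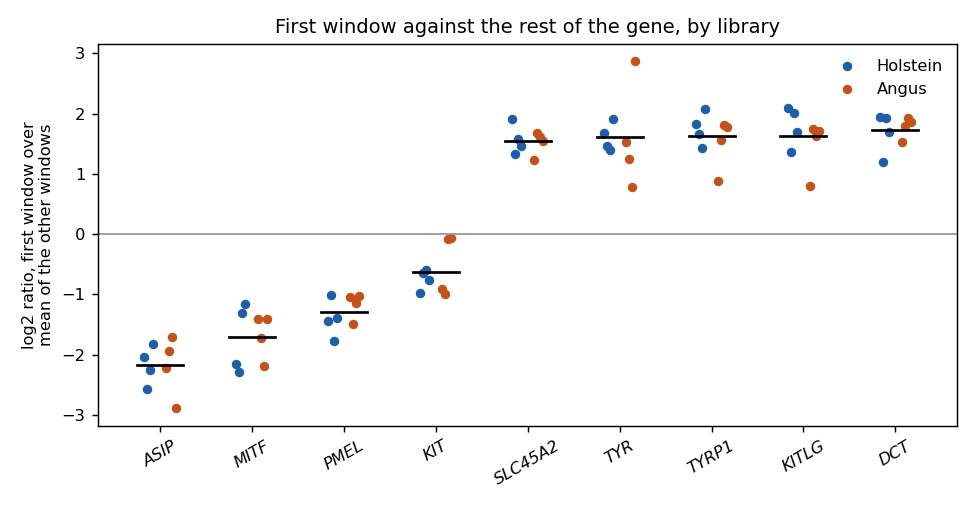
Log2 ratio of the CPM in the first window to the mean CPM of the other windows of the gene (0.1 CPM added to both), 1 point per library, Holstein blue and Angus orange, with the mean of 8 libraries as a black line. ASIP, MITF, PMEL and KIT lie below 0 and SLC45A2, TYR, TYRP1, KITLG and DCT above 0 in every library.

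Of the 56 other pigmentation genes of the list that could be tested, 35 were lower and 10 higher in the first window, with a median log2 ratio of -0.68. The 10 higher were TRPM1, GPNMB, RAB38, ATRN, OCA2, EDN1, MLANA, TRPM7, SLC24A5 and EDNRB, with log2 ratios from 0.32 in TRPM1 to 1.57 in EDNRB, the endothelin receptor of melanocytes. Among the 35 lower were MGRN1 (-3.13), TPCN2 (-2.25), a cation channel of melanosomes and endolysosomes, MREG (-0.68) and SOX10 (-0.42), a transcription factor upstream of MITF. Genes of the melanosome thus stood in both directions, and GPR143 (0.07), a receptor of the melanosome, did not pass.

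Within genes, windows that touch a coding exon were set against those that do not, with the first window left out of both. Of the 10 genes, 7 had at least 2 windows of each kind, and 6 of these were higher in coding windows by the exact sign-flip test adjusted over 9235 genes, of which 57.8% were higher and 25.7% lower. SLC45A2 had the largest log2 ratio (0.89 ± 0.260, SD, n = 8), followed by DCT (0.85 ± 0.286) and ASIP (0.72 ± 0.376), each above 0 in 8 of 8 libraries with adjusted p = 0.0114. KITLG (0.15 ± 0.0743) was also above 0 in 8 of 8 libraries, and MITF (0.27 ± 0.261) and KIT (0.25 ± 0.190) in 7 of 8 (adjusted p = 0.0306). In KIT, 9 windows described below held at most 3 reads over the 8 libraries. They were kept in this comparison, and the KIT ratio without them was not tested. MITF lost its call when medians took the place of the means of both the coding and the other windows (0.0963, adjusted p = 0.666). It also lost its call without Holstein 1 and Angus 3 (0.16, adjusted p = 0.114). TYR had a log2 ratio of 0.26 ± 0.371, above 0 in 6 of 8 libraries, and did not pass (adjusted p = 0.128). For TYR the ratio was 0.53 in Holstein and -0.01 in Angus, an exact permutation p of 0.0286, which is the smallest 4 against 4 libraries can give, and an adjusted p of 1.

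The share of a gene's reads in its highest window ranged from 8.89% in KIT to 50.3% in PMEL, leaving aside MC1R with its 1 window. KITLG peaked in its first window, which held 15.4% of its reads. KIT peaked in window 17, outside the coding exons, at 1.17 ± 0.245 CPM, and its 42 windows included 9 with at most 3 reads summed over the 8 libraries (windows 3, 4 and 7 to 13), together 10 reads. Such windows made up 1.51% of all windows with a gene name and were found in no other member. Between them, KIT window 5 (chr6:71805782-71808781) held 5, 37, 19 and 35 reads in the Holstein cultures and 19, 25, 2 and 10 reads in the Angus cultures, lowest in the 2 libraries with the most concentrated reads, and its deepest base was covered 37 times in 1 library, against at most 38 in any member window. Whether gaps of the assembly lie there was not tested.

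MITF had peaks in windows 3 and 4 and in its last window 12, which touches coding exon 9 and was highest at 1.44 ± 0.298 CPM with 23.2% of the reads. TYR held 10.3% of its reads in the first of 38 windows and had a second peak of 0.793 ± 0.148 CPM in window 11, which touches no coding exon. TYRP1 held 47.7% of its 285 reads in the first of 6 windows. DCT had a peak in window 6 (1.94 ± 0.366 CPM, coding exon 6) close to that of its first window. PMEL rose along its 3 windows from 0.206 to 0.767 CPM, and SLC45A2 was highest in its last window 13, which touches coding exon 8, at 2.41 ± 0.604 CPM with 24.97% of its reads (SD, n = 8 throughout). In all but 1 of the 157 windows with reads the libraries of the breeds overlapped, while 1.25% of all windows with reads did not overlap.

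**Figure D3:**
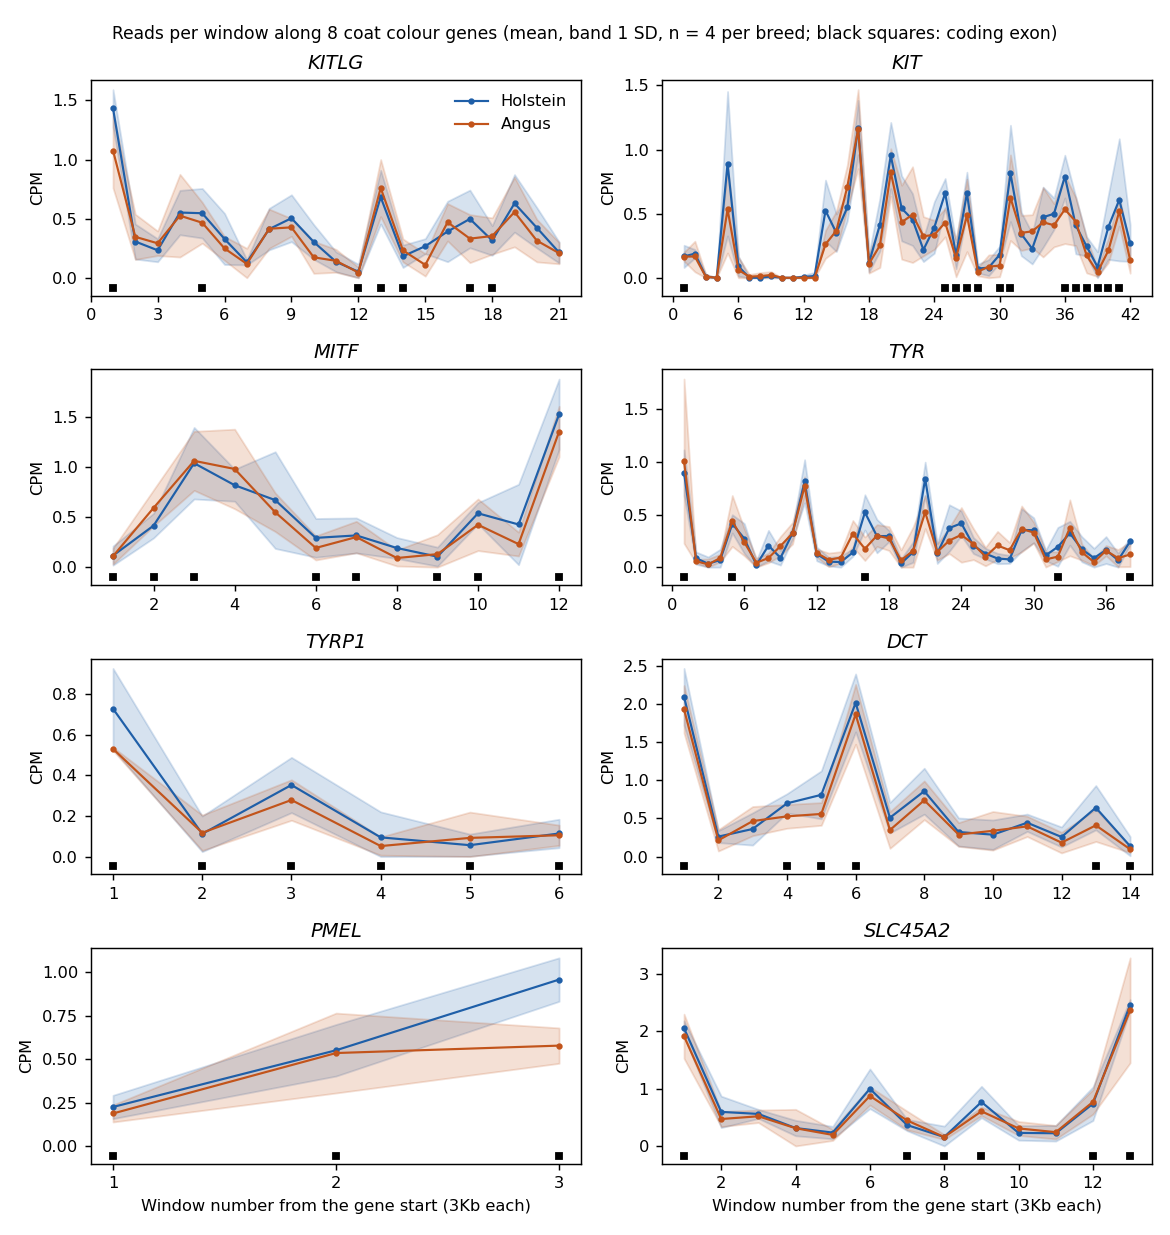
CPM in each 3Kb window along 8 genes, counted from the start of the gene, with the mean (line) and 1 SD (band) of 4 Holstein (blue) and 4 Angus (orange) libraries and black squares under windows that touch a coding exon. The vertical scales differ between genes. The libraries of the breeds overlap in all of these windows but PMEL window 3, which is higher in Holstein. Of all windows with reads, 1.25% do not overlap.

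The central comparison of the study was Holstein against Angus. Only 10 of the 160 windows passed the filter used here after the study's methods, 1 CPM or more in 4 or more libraries. These were the first windows of MC1R, DCT, SLC45A2 and KITLG and windows 3 and 12 of MITF. DCT, KIT, ASIP and SLC45A2 had 1 further window each. With edgeR's likelihood-ratio test 0 of these 10 was a differentially methylated region (DMR, FDR < 0.1 and FC ≥ 2), beside 0.231% of the 115360 windows tested. None of the 10 had an unadjusted p under 0.05 either, beside 4.94% of all windows tested. With edgeR's quasi-likelihood test 0 of the 10 was a DMR, beside 0.122%, and with DESeq2 also 0, beside 0.122%. None had an unadjusted p under 0.05 by these tests, beside 4.47% and 3.29% of all windows tested. In MC1R the log2 fold change (Holstein over Angus) in the fit over all windows was -0.01 with a 95% interval of -0.51 to 0.49, and in the first window of DCT it was -0.02 (-0.52 to 0.48). For SLC45A2 the first window gave -0.04 (-0.54 to 0.46) and for KITLG 0.28 (-0.23 to 0.79). A difference of 2-fold lies outside each of these intervals.

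To obtain a value for the low windows the test was repeated over all 887821 windows with reads, which include 157 member windows. In this fit 1 member window was a DMR, beside 0.102% of all windows and 0.0754% that were higher in Angus, and the quasi-likelihood test called the same window, beside 0.0564% of all windows. At an unadjusted p under 0.05 there were 9 of 157 member windows, beside 4.55% of all windows, and the median log2 fold change of the 157 was -0.03, with 72 above and 85 below 0. The breeds did not overlap in 1 member window, PMEL window 3 with Holstein above Angus, beside 1.01% of all windows in this direction and 1.25% in either. 

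The DMR was ASIP window 9 of 10 (chr13:64236797-64239796, + strand), to which the files assign coding exon 3. The Holstein cultures, in the order 1 to 4, gave 11, 16, 14 and 28 reads and the Angus cultures 36, 56, 23 and 34 reads, or 0.556, 0.692, 0.530 and 0.788 CPM against 1.26, 1.95, 0.772 and 1.82 CPM. Angus was higher, and the breeds overlapped only in that Angus 3 lay just under Holstein 4. The means were 0.642 ± 0.121 and 1.45 ± 0.542 CPM (SD, n = 4 each), a log2 fold change of -1.29 with an SE of 0.27 and an FDR of 0.00380 with edgeR's likelihood-ratio test and 0.00960 with its quasi-likelihood test. This window was picked out in an earlier analysis of the same counts, so its call here is no independent evidence. The call was lost with library sizes left unscaled by TMM (log2 fold change -1.14, FDR 0.660), without Holstein 3 (FDR 0.106) and without Angus 2 (FDR 0.128), with FDR between 0.000182 and 0.660 over all alternatives. The window had a CPM of 1 in fewer than 4 libraries and so did not enter the test with the CPM filter.

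The share of ASIP reads that fell in window 9 does not depend on library scaling. It was taken from the same counts as the call, so it is no independent evidence for it. The Holstein cultures had 20, 15.5, 15.6 and 19.2% of it there and the Angus cultures 26.3, 38.9, 25.3 and 31.5%, so that every Angus library lay above every Holstein library. The Wilson 95% intervals of single libraries were wide, for example 11.6 to 32.4% in Holstein 1 and 17.5 to 35.1% in Angus 3. By the same measure 8 of 156 member windows did not overlap between breeds, 4 in each direction, which is 5.13% beside 2.43% of 338003 windows genome-wide. The 8 were ASIP window 9, PMEL window 3, KITLG windows 3 and 15 and TYR windows 15, 16, 21 and 28, and they are named after their values were seen. Some of them rest on few reads. For example, TYR window 28 held 2, 1, 1 and 4 reads in Holstein, and KITLG window 15 held 7, 3, 1 and 1 in Angus. Shares of windows of the same gene have a common total and are not independent, and the excess over the genome-wide share was not tested.

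None of the windows named around the DMR was called. Window 10, the last of the gene, held 18, 24, 27 and 32 reads in the Holstein cultures and 32, 39, 22 and 27 in the Angus cultures, and its log2 fold change was -0.40 (SE 0.26, edgeR FDR 1.00). Window 8, which touches coding exon 1, had a log2 fold change of 0.18, window 7 had -0.26, and the first window past the gene had -0.29, none with an unadjusted p under 0.05. Along ASIP 8 of the 10 windows had a log2 fold change below 0, with a median of -0.35. Summed without window 9, ASIP gave 3.05 ± 0.657 CPM for Holstein and 3.21 ± 0.717 CPM for Angus (SD, n = 4), and the breeds overlapped. These sums are not TMM-scaled, unlike the fold changes, and a TMM-scaled difference without window 9 was not computed. Of the 20 windows flanking the gene, 10 on each side, 9 had a log2 fold change below 0 and 11 above, and none was called. An unadjusted p under 0.05 by edgeR's likelihood-ratio test was found in 2, beside 4.55% of all windows with reads. The breeds did not overlap in 1 of the 20, beside 1.25% of all windows with reads. This was 1 of the 2, a window upstream (chr13:64188797-64191796). It held 1, 2, 0 and 2 reads in the Holstein cultures, all under the floor of 3, and 7, 7, 4 and 2 reads in the Angus cultures (log2 fold change -2.04, edgeR FDR 0.631). The other of the 2 was a window of AHCY, the next gene named downstream. There Holstein had 3.87 CPM and Angus 2.38 CPM (log2 fold change 0.53, edgeR FDR 1.00). Both were named after their values were seen.

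**Figure D4:**
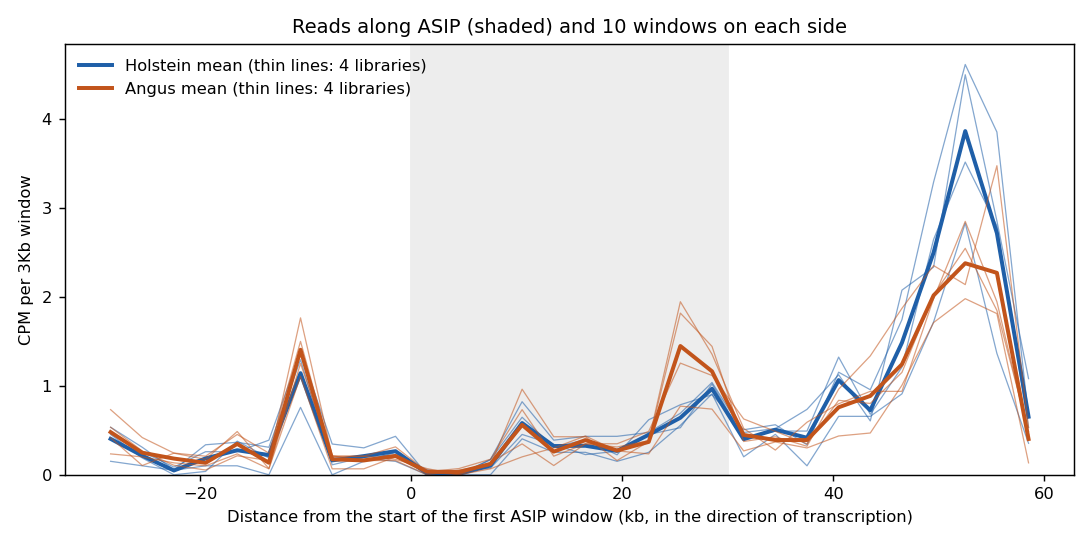
CPM per 3Kb window along ASIP (shaded) and 10 windows on each side, against distance in kb from the start of its first window in the direction of transcription; thick lines are the means of 4 Holstein (blue) and 4 Angus (orange) libraries and thin lines the libraries. The breeds part in window 9, at 0.642 CPM in Holstein and 1.45 CPM in Angus, while the first windows of the gene are near 0 in both.

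TYR held the window with the next smallest p. Window 16 (chr29:6415919-6418918, coding exon 3) had 13, 11, 8 and 23 reads in the Holstein cultures and 9, 3, 2 and 4 in the Angus cultures. Holstein averaged 0.521 ± 0.168 CPM and Angus 0.175 ± 0.112 CPM (SD, n = 4 each), and the log2 fold change was 1.45 (SE 0.40), which did not pass (edgeR FDR 0.216). Holstein was higher, with overlap of Holstein 3 and Angus 1. The window next to it, 15, leaned to the other breed with means of 0.140 ± 0.0367 CPM for Holstein and 0.318 ± 0.126 CPM for Angus and a log2 fold change of -1.30 (SE 0.47, edgeR FDR 0.820).

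PMEL window 3 (chr5:57675606-57678605, coding exon 7) had 0.809, 0.909, 1.10 and 1.01 CPM in the Holstein cultures and 0.628, 0.695, 0.504 and 0.482 CPM in the Angus cultures. Every Holstein library lay above every Angus library in CPM, and the log2 fold change was 0.56 (SE 0.28, 95% interval 0.01 to 1.10), which did not pass (edgeR FDR 1.00). The smallest p of KITLG was in window 15 (log2 fold change 1.10, SE 0.52) and that of KIT in window 14 (0.79, SE 0.36), both with an edgeR FDR of 1.00. In MITF, TYRP1, DCT and SLC45A2 no window had an unadjusted p under 0.05.

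Reads were last summed over all windows of a gene, which gave 285 reads for TYRP1 to 2767 for KIT over the 8 libraries. With edgeR's likelihood-ratio test 0 of the 10 genes was called, beside 0.0721% of 19417 genes tested, and 0 by the quasi-likelihood test (0% of all genes) and DESeq2 (0.0309%). ASIP alone had an unadjusted p under 0.05, beside 2.11% of all genes. The Holstein cultures had 2.78, 4.46, 3.41 and 4.11 CPM and the Angus cultures 4.78, 5.01, 3.06 and 5.78 CPM, with overlap of the breeds. Its log2 fold change was -0.49 (SE 0.15, edgeR FDR 0.309), and window 9 gives part of it. With total counts in place of TMM the ASIP value was -0.33 (edgeR FDR 0.984). In that likelihood-ratio fit 0 of the 10 genes had an unadjusted p under 0.05, beside 144 of 19417 genes tested.

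The other 9 log2 fold changes lay between -0.08 in SLC45A2 and 0.23 in PMEL, each with an edgeR FDR of 1.00. The 95% intervals of all 10 genes lay within a 2-fold difference, reaching farthest from 0 at 0.62 in PMEL and -0.77 in ASIP, and that of TYRP1 was widest (-0.31 to 0.57). The signs of several of these small values depend on scaling: without TMM, when the median of all genes itself moves to 0.15, those of MC1R (0.16), MITF (0.11), TYR (0.10) and SLC45A2 (0.08) turn positive. The gene sums of SLC45A2 were 9.67 ± 1.88 CPM for Holstein and 9.15 ± 1.91 CPM for Angus, and those of TYR 9.20 ± 2.16 and 8.57 ± 2.93 CPM (SD, n = 4). Per 3Kb window of the gene, levels over both breeds ranged from 0.219 CPM in TYRP1 and 0.234 CPM in TYR to 0.724 CPM in SLC45A2 and 3.81 CPM in MC1R.

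**Figure D5:**
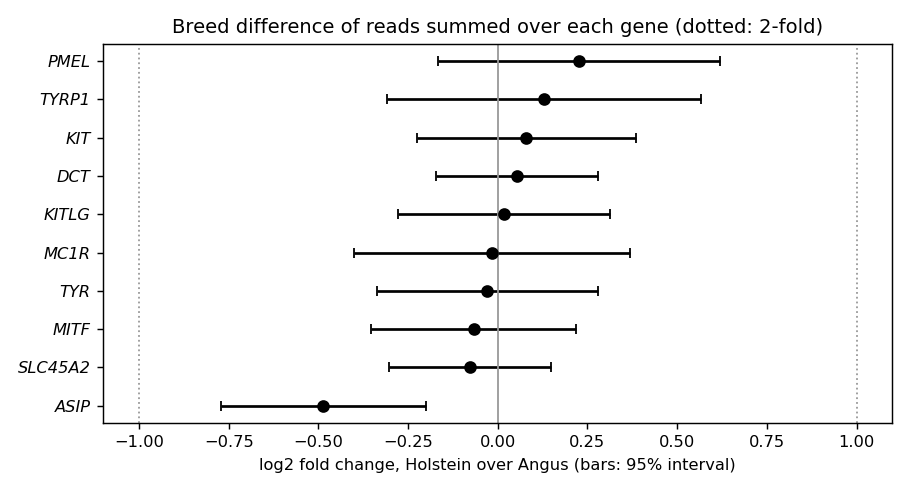
Log2 fold change (Holstein over Angus, edgeR with TMM) of the reads summed over each gene, with 95% intervals and dotted lines at a 2-fold difference. Every interval lies inside the dotted lines, and that of ASIP, at -0.49, does not reach 0.

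Of 57 other pigmentation genes tested as sums, 0 was called with edgeR's likelihood-ratio test (0.0721% of all genes), its quasi-likelihood test (0%) or DESeq2 (0.0309%). An unadjusted p under 0.05 was found for 4 of the 57 with the likelihood-ratio test, beside 2.11% of all genes tested. Their median log2 fold change was -0.00092, beside 0.00014 for the 10 members and -0.02 over all genes tested.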

How the data were processed

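MIRA-Seq libraries of 8 un-treated fibroblast cultures were analysed. Breed and library number came from the sample labels. The authors base-called the reads with CASAVA 1.7, filtered them, aligned them to UMD v3.1 with NextGENe 2.3.4 and deposited raw read counts per 3Kb window, without normalization, pooling or an input library. The deposited files also give minimum, maximum and mean coverage per window, of which the maximum was used to look for stacked reads. Handling of duplicates and of reads with several matches is not given in the sources used here, and neither is the strand of reads. Each window carries at most 1 gene name, so reads of overlapping genes are not separated. No genome of this build was used, so no sequences are shown. Other libraries of the study were not analysed here.

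The members and lists were chosen with earlier results of these data known. Library size was the total over all windows, 18691111 to 35525554 reads. Tests were made in R 4.3.3 with edgeR 4.0.16: TMM, glmFit and glmLRT by breed, with p adjusted after Benjamini and Hochberg over all windows or genes tested. It was run on windows with 1 CPM or more in 4 or more libraries, on all windows with reads, and on gene sums. A call needed FDR < 0.1 and FC ≥ 2, after the study's methods. The SE is the log2 fold change divided by the root of its chi-square value, and intervals are 1.96 SE. Ratios within genes were tested by exact sign-flip permutation over 8 libraries (adjusted p under 0.1), with numpy 2.4.6 and pandas 2.3.3 under Python 3.11.15, and Wilson intervals came from scipy 1.17.1. The labels number the libraries within a breed, and the study's text gives 4 animals of each breed.

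Windows were named by a rule: the first, the highest and the smallest-p window of each gene, each DMR, and the 2 windows on each side of a DMR. Others are named as chosen after their values were seen. The procedure was tested on simulated counts with 200 changed features. These took 1 mean profile scaled by library size and 1 common dispersion. They lack the differences in read concentration between the real libraries, so error rates in the data may differ. On windows that passed the CPM filter it recovered 19 of 50 changed 2-fold and all at larger folds, with 3.43% false calls. Over all windows it recovered 1, 20, 34 and 48 of 50 windows changed 2, 3, 4 and 8-fold, with 11.2% false calls. For gene sums it recovered 27 of 50 genes changed 2-fold and all at larger folds. Alternatives were total counts or DESeq2 size factors in place of TMM, edgeR's quasi-likelihood test, DESeq2 1.42.0, and other thresholds and filters. Further alternatives were a pseudocount of 0.5 CPM, medians, a block for the library number, and omission of libraries.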

Additional observations from a re-analysis of the deposited data

Results flagged for a closer look

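In 2 of 38 breed groups of 4 libraries, 1 library stood apart from the other 3 by more than Dixon's 95% limit for the gap over the range, and chance flags about 1 group in 20. In the first window of ASIP, Holstein 4 had 0.0563 CPM while the other Holstein libraries had 0; this rests on 2 reads, under the floor of 3. In the gene sum of SLC45A2, Angus 3 had 6.31 CPM, under the 9.91 to 10.4 CPM of the other Angus libraries, and Angus 3 is also the library with the lowest TMM factor, whose part in this value was not tested.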

How the results depend on the processing

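No alternative gave a called member among windows that passed the CPM filter or among gene sums. Over all windows with reads, the 1 called window became 0 with total counts only, and 0 to 1 when each library was left out in turn. The cause was not tested. Leaving out Holstein 1 and Angus 3 together, an alternative chosen after seeing the data, kept the call of ASIP window 9 (log2 fold change -1.47, FDR 0.00200). The first-window counts stayed at 4 lower and 5 higher genes in every alternative, but with a pseudocount of 0.5 CPM the log2 ratios shrank, for example from -2.18 to -0.87 in ASIP and from 1.63 to 0.82 in TYRP1. In the comparison of coding windows, with medians in place of both means, TYR (adjusted p = 0.0661) was called in place of MITF. The 6 genes higher in coding windows became 7 with a pseudocount of 0.5 CPM, 5 without Holstein 1 and Angus 3 and 6 to 7 when leaving out single libraries.

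Gene sums with small differences changed sign: with total counts only MC1R (0.16), TYR (0.10), MITF (0.11) and SLC45A2 (0.0837), without the first window TYR (0.0034) and KITLG (-0.0200), without the window with most reads KITLG (-0.0315), and without Holstein 1 and Angus 3 MC1R (0.0119) and KITLG (-0.0243). With 1 library left out, values ranged from -0.14 to 0.11 in MC1R, -0.12 to 0.0901 in TYR, -0.0289 to 0.17 in KIT and -0.0720 to 0.13 in KITLG.

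The breeds share library numbers 1 to 4 in the labels, but same-numbered libraries did not deviate together. The pairwise correlations of deviations from the breed means were -0.157, 0.0157, -0.0075 and 0.139, and 1 library correlated best with its own number. With the number as a replicate block, 0 of the 10 member windows that passed the filter was called, beside 346 of 115360 windows tested. Over all windows with reads, 1 member window was called (ASIP window 9, log2 fold change -1.33, FDR 0.0078), beside 614 of 887821. Among gene sums 0 of the 10 members was called, beside 17 of 19417. Depth limits the low windows: the median member window held 63.5 reads over the 8 libraries, and 2-fold changes were seldom recovered in simulation.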
